A study of Mus musculus with 4 samples.

Results

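In the mouse liver, 5006 regions of open chromatin lay inside protein-coding genes and were called in all 4 libraries of the study. They were chosen by position and by call. Overlapping or touching peaks of the 4 lists were joined into one region, and a joined region was kept when a peak of every library lay in it, it overlapped the span of a protein-coding gene, and it lay over 1 kb from every end of a protein-coding gene. The 5006 members were 12.9% of all 38853 merged regions and 28.5% of the 17581 regions called in all 4 libraries, which are called constitutive here. The other constitutive regions lay at gene ends (7782) or outside genes (4793). Since the rule used calls and positions, the numbers of calls and places of members are descriptions and carry no test.

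The assay was ATAC-seq, which uses the transposase Tn5 to place sequencing adaptors into DNA that is free of nucleosomes. The libraries came from frozen liver of female FVB mice, 11 weeks old and fed standard chow, handled by the Omni-ATAC method. There were 2 wild-type libraries (WT 1 and WT 2) and 2 libraries labelled PA (PA 1 and PA 2), from mice given as hypomorphic Pcca-/- (A138T). Pcca encodes the alpha subunit of propionyl-CoA carboxylase, the mitochondrial enzyme that carries propionyl-CoA from odd-chain fats and some amino acids toward the citric acid cycle. The labels give neither how the A138T form was introduced nor whether same-numbered animals shared a litter, and they call the replicates biological.

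Open chromatin inside a gene is of several kinds. It can be an alternative promoter, from which a shorter or differently spliced transcript starts, or an enhancer, a stretch bound by transcription factors that raises transcription of the same gene or of another one at a distance. Promoters rich in the dinucleotide CpG are open in many tissues, while enhancers differ more from one cell type to the next. In liver, enhancers within genes are bound by factors such as HNF4A, FOXA and CEBP, and genes of metabolism often have a separate liver promoter.

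The windows below are the 250 bases before 6 transcription starts that lay inside a gene and under a member. They were read from RefSeq promoter windows of GRCm38.p6, which is the mm10 build of the peak lists, and are written 5′ to 3′ on the strand of the gene. The letters are those of the C57BL/6J reference and not of the FVB mice. They are shown because members over such starts stood apart from the other members in the lists, and because they range from 37 CpG to 2 CpG. Capitals mark matches, on either strand, to any of 12 short motifs of factors common at promoters or in liver. For the SP and KLF families the letters were GGGCGG, for the factor NFY they were CCAAT and for NFI TTGGCNNNN. For CTCF they were AGGGGGC, for ETS factors CCGGAAGT and for NRF1 GCGCATGC. For the liver factor HNF4A they were CAAAGTCC, for FOXA TGTTTAC and for CEBP TTGCNNAA. The AP-1 letters were TGACTCA, those of the TATA box were TATAAA and those of the E-box, which clock factors bind, were CACGTG. Matches to NFY and NFI can share bases, as can those to CTCF and SP/KLF. A match is a description of letters and does not show that a factor was bound.
Slc39a10, chr1:46853619-46853868, minus strand: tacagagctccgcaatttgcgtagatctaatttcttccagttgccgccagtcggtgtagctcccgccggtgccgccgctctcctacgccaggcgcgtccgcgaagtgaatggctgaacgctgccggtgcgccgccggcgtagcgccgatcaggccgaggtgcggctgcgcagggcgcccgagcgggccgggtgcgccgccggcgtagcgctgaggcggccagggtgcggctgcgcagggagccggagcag
Por, chr5:135688895-135689144, plus strand: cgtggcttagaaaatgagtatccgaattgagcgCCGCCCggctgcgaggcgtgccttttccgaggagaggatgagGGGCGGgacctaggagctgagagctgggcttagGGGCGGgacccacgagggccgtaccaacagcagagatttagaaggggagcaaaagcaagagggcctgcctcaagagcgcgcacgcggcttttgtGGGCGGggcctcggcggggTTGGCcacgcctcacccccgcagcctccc
Pcca, chr14:122534078-122534327, plus strand: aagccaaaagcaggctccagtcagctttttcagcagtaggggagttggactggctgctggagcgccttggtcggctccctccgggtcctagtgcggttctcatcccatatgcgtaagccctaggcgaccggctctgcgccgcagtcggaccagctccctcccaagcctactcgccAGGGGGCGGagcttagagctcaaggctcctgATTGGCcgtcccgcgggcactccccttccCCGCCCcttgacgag
Arntl, chr7:113207215-113207464, plus strand: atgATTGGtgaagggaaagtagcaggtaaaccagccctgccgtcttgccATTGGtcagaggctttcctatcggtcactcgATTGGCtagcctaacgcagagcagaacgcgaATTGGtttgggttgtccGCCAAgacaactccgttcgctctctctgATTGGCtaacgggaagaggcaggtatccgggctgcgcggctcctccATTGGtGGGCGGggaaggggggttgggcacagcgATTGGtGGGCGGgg
Hnf4a, chr2:163546905-163547154, plus strand: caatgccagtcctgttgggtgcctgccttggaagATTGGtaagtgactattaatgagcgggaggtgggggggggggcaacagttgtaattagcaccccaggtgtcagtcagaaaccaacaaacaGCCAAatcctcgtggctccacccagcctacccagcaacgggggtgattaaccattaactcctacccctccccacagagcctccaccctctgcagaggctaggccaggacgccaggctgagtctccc
Prlr, chr15:10223656-10223905, plus strand: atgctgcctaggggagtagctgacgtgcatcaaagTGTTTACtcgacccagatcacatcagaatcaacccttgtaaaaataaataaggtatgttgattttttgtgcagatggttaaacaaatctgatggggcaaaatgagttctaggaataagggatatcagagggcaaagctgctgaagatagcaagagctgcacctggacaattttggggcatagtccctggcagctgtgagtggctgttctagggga
The Slc39a10 window held 37 CpG and none of the motifs. The windows of Por, Pcca and Arntl held 21, 17 and 16 CpG, with 4, 2 and 2 matches to SP/KLF. Arntl also held 7 matches to NFY. The windows of Hnf4a and Prlr held 4 and 2 CpG and no match to SP/KLF.

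The gene that the study altered held 4 members. Pcca spans 406 kb on chromosome 14, and neither of its ends had a peak of any library within 1 kb. A start of Pcca is listed at the 5′ end, so that listed start was called in no library. The member at chr14:122534040-122534470 lay over a listed start 49.96 kb from the 5′ end of the span, and its window is the one printed above. Each deposited list is in an order other than genome order, so the place of a peak can be given as the percent of lines down the list of its own library, where a small value is near the top. The quantity behind that order is not stated in the labels or the files. The region over the Pcca start stood at 3.92 and 2.96% in WT 1 and WT 2 and at 2.83 and 2.52% in PA 1 and PA 2, near the top of every list. The 3 other Pcca members stood lower. The one at chr14:122548469-122548872 stood at 34.1, 33.1, 45.2 and 23.0% in WT 1, WT 2, PA 1 and PA 2, and the one at chr14:122586912-122587352 at 78.4, 83.2, 64.4 and 87.8%. In both of these the genotypes overlapped. The member at chr14:122719619-122720145 stood at 49.9 and 46.1% in the WT libraries and at 69.3 and 71.6% in the PA libraries, so both WT libraries were higher. Pccb, the gene of the beta subunit of the same enzyme, spans 52.9 kb and held no region inside it. Each of the 4 libraries had a peak within 1 kb of an end of Pccb.

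Of the 14327 regions inside genes, 4642 were called in 1 library, 2489 in 2, 2190 in 3 and 5006 (34.9%) in all 4. A member had a median length of 444.5 bp (range 400 to 958), which the nearly constant peak length of 400 bp sets from below, and each held exactly 1 peak per library. The peak centres of the 4 libraries lay within a median of 44.5 bp of each other (quartiles 26.0 and 69.0 bp), and 57.6% of members had all 4 centres within 50 bp. The mean distance between centres was 32.7 bp for WT 1 and WT 2, 31.7 bp for PA 1 and PA 2, and 29.6 to 35.3 bp for pairs of different genotype. Position within a member was thus about as close between genotypes as within them.

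Members were spread over all 20 chromosomes with peaks, at 5.08 per Mb of gene body further than 1 kb from an end. The density was 6.44 per Mb on chromosome 13, 6.31 on chromosome 18 and 2.10 on X. The median distance to the nearest gene end was 18888 bp (quartiles 6992 and 51369 bp). Density fell with depth in the gene, from 6.66 per Mb at 1 to 5 kb from an end to 6.21, 5.20, 4.47 and 2.93 per Mb at 5 to 20, 20 to 50, 50 to 100 and over 100 kb. Regions inside genes called in only 1 library had densities of 4.25, 5.71, 5.45, 4.84 and 2.84 per Mb in the same bins. Regions of all 4 libraries therefore exceeded those of 1 library most in the bin nearest to gene ends. Members in genes with RefSeq promoter windows but over no listed start numbered 394, 1069, 820, 476 and 452 in the same bins. Divided by the body of all protein-coding genes, this was 2.96, 3.95, 3.68, 3.21 and 2.14 per Mb, highest at 5 to 20 kb. That body includes genes without promoter windows. These values are therefore too low to set beside the other densities, and their shape may also be affected. The 5 deepest members lay in Dlg2 (881406 bp from an end), Cntnap2, Lsamp, Fhit and Tenm3, which are among the longest genes of the genome. The one in Fhit lay over a listed start of that gene. At the limit of the rule, the nearest members to a gene end lay at 1001 bp in Mettl24 and Spindoc and at 1002 bp in Zfp688. The nearest regions left out lay at 997 bp in Fcho2 and Sh2b1 and at 993 bp in Mpped2, and all 3 lay over listed starts.

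**Figure D1:**
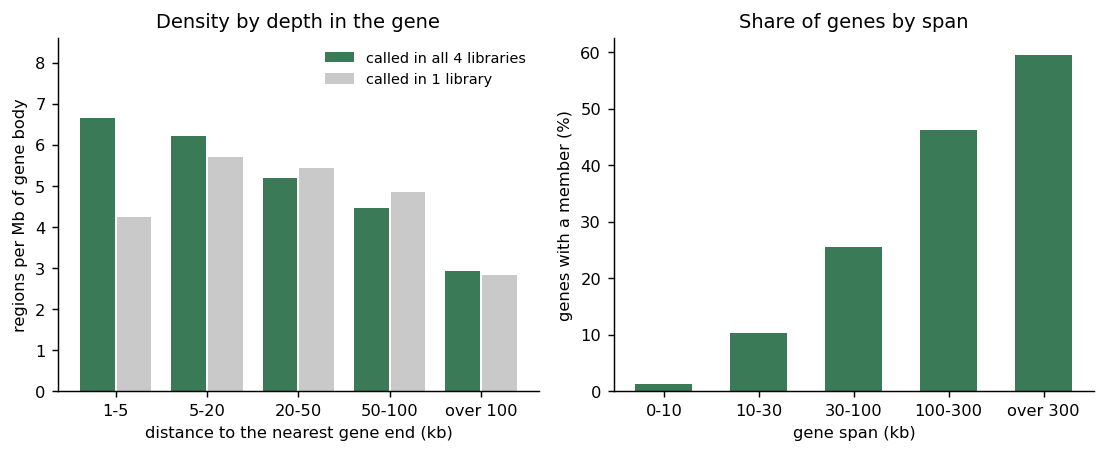
Left, regions per Mb of gene body by distance to the nearest gene end, for regions called in all 4 libraries (members) and in 1 library. Right, percent of protein-coding genes with at least 1 member by span of the gene. Members fell from 6.66 per Mb at 1 to 5 kb to 2.93 per Mb over 100 kb, and the share of genes rose from 1.30% to 59.5% with span.

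A member lay in 3254 of 21627 protein-coding genes (15.0%). Of these host genes, 2266 held 1 member, 578 held 2 and 410 held 3 or more. Host genes had a median span of 66.3 kb against 13.6 kb in genes without a member, and the share of genes with a member was 1.30% under 10 kb, 10.3% at 10 to 30 kb, 25.6% at 30 to 100 kb, 46.2% at 100 to 300 kb and 59.5% above. Per Mb of body the same bins held 5.45, 6.77, 6.37, 5.49 and 2.998 members, so the density was lowest in the longest genes. A call in all 4 libraries at a gene end was present in 46.1% of host genes and in 39.8% of genes without a member.

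The genes with the most members were long. Arhgap26, a regulator of small GTPases, and Pde4d, which breaks down cyclic AMP, held 16 each, and the adhesion protein gene Tenm3 held 12. Prkce and Nav2 held 10 each. Next came Adgrv1, Esrrg and Ppargc1a with 9, and 5 genes tied at 8, which were Slc4a4, Nfia, Rora, Robo1 and Zbtb20. Slc4a4 and Nfia complete the 10 by shorter span, and the other 3 are named for the tie, after their counts were seen. Ppargc1a encodes the coactivator PGC-1alpha, which drives gluconeogenesis and fat oxidation in fasted liver, and Esrrg a nuclear receptor that works with it. In Ppargc1a the members stood from 16.4 to 63.0% down the lists on average, and no library had a call at either end of the 662 kb span. The only start listed for it in the promoter windows lay 548.1 kb from the 5′ end of the span, under no member. Per 100 kb of gene body, among genes with at least 4 members, the order was different. Eva1a led with 9.99, followed by Hlf with 7.64, Por with 6.32, Rufy3 with 5.89, Kat2b with 5.77, Fgf1, Dusp16, Smco4 and Gramd3, and Igf1 with 5.21. Hlf encodes a clock-controlled transcription factor of the PAR bZIP family, Por the reductase that feeds electrons to cytochromes P450, Kat2b a histone acetyltransferase and Igf1 the growth factor that liver secretes under growth hormone. The 4 members of Igf1 stood at 34.3 to 79.0% on average, and those of Hlf at 9.26 to 46.7%.

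**Figure D2:**
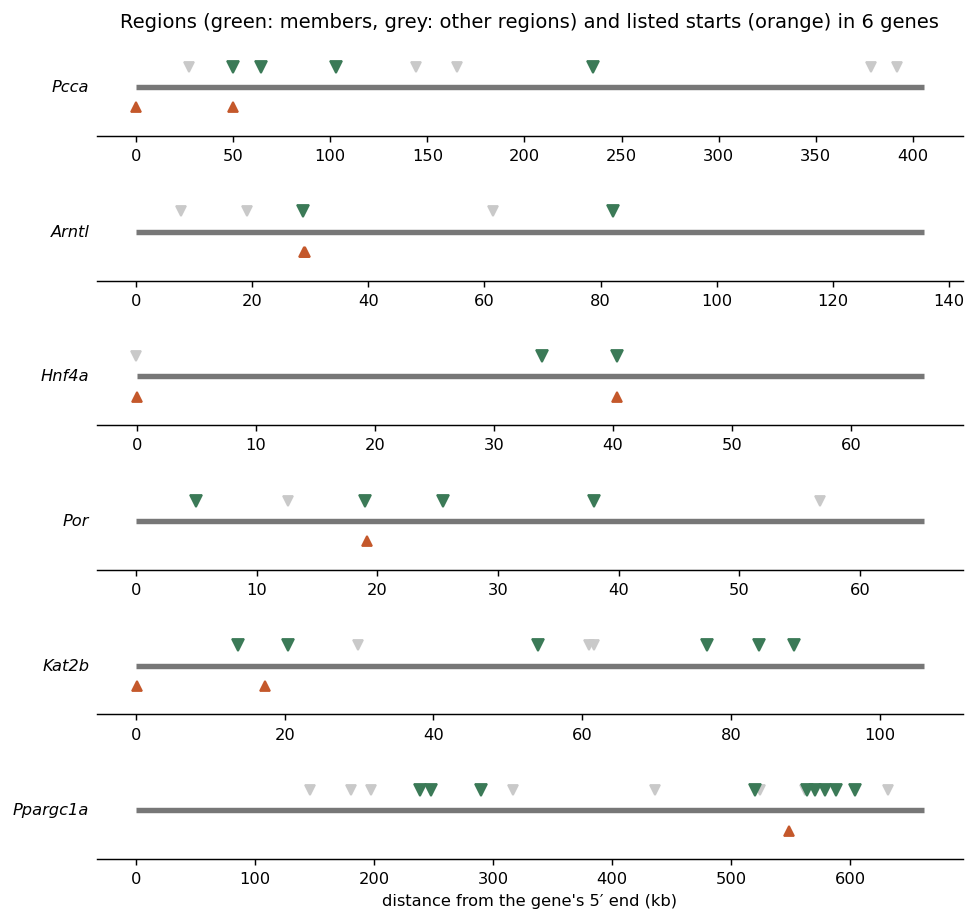
Regions and listed transcription starts along 6 genes, by distance from the 5′ end of the span in kb. Downward triangles mark regions (green for members, grey for regions that are no members) and upward orange triangles mark starts listed in the promoter table. In Pcca, Arntl, Hnf4a and Por a member stood over a start inside the span, at 49.96, 29.0, 40.3 and 19.1 kb.

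A listed start of a protein-coding gene lay under 704 members (14.1%), in each case a start of a gene whose span held the member. Another 64 lay over the start of a long noncoding RNA alone, 3211 (64.1%) lay in a gene of the promoter table but over no listed start, and 1027 lay in genes with no entry there and are left out of comparisons of starts. Among members in genes with an entry, the share over a protein-coding start was 17.8%. The centre of the region lay upstream of the start in 74.3% of the 704, with a median offset of -42.3 bp (quartiles -92.5 and 1.63 bp, negative values upstream). A member was counted when it overlapped the window from 250 bases before to 50 bases after the start, so the count itself admits centres further upstream than downstream.

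**Figure D3:**
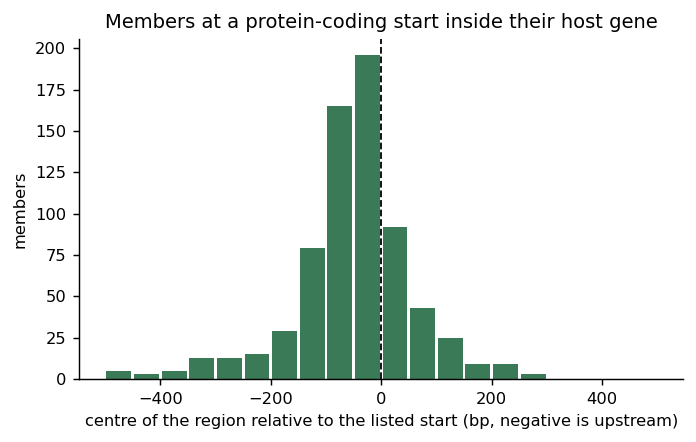
Number of members by the distance from a listed protein-coding start inside the host gene to the centre of the region, in bins of 50 bp, with negative values upstream. The 704 members pile up just upstream of the start, with 196 in the bin centred at -25 bp and 165 in that at -75 bp.

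Of 3881 protein-coding starts listed over 1 kb from every gene end, 878 (22.6%) were called in all 4 libraries and 2657 (68.5%) in none. Starts within 1 kb of an end were called in all 4 libraries in 40.3% of 17163 cases and in none in 51.3%. Start members stood near the 5′ end of their gene, with 60.5% within 10 kb of it and 80.8% closer to it than to the 3′ end. Members over no start were placed evenly, with 50.2% closer to the 5′ end. In 508 of the 695 genes with an own start in a member, no library had a call at the 5′ end of the span. For 376 of these 508 the promoter table lists no start at that end, and for 132 it does. Among all 239 such genes with a start listed at the 5′ end, 55.2% had no library there, beside 46.9% of 15533 protein-coding genes with a start listed at the 5′ end.

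Base composition set the open internal starts apart from the closed ones. The promoter windows under members (300 bases, 250 before and 50 after the start, n = 788) had a median GC content of 63.0% and a median CpG ratio of 0.769, the ratio of CpG found to CpG expected from the C and G content. Windows of internal starts with no peak in any library (n = 2657) had 52.0% and 0.290, and windows at gene ends called in all 4 libraries (n = 6893) had 62.7% and 0.819. A ratio above 0.6 was present in 73.6% of windows under members, 20.0% of internal windows with no peak and 83.4% of gene-end windows called in all 4. Gene-end windows with no peak in any library (n = 8794) had a GC content of 50.7%, a ratio of 0.279 and 23.7% above 0.6. Windows under members therefore resembled called promoters, and uncalled windows were alike inside genes and at their ends. Windows are not replicates and neighbours overlap, so these shares carry no test.

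Motif letters followed the composition. SP/KLF GGGCGG was found in 65.6% of windows under members, 27.6% of internal windows with no peak, 72.9% of gene-end windows called in all 4 libraries and 35.9% of all 32585 windows in the table. The ETS letters CCGGAAGT were found in 7.74, 1.167, 10.6 and 3.92% of the same sets, and the NRF1 letters GCGCATGC in 5.58, 1.09, 6.70 and 2.71%. The factors that bind these letters are common at CpG-rich promoters. TATAAA was rarer under members, at 4.57%, and at called gene ends, at 5.53%, than in internal windows with no peak (13.4%) or over the table (13.7%). The CEBP letters TTGCNNAA were found in 7.74, 12.1, 7.28 and 10.9% of these sets. The HNF4A letters CAAAGTCC stood at 1.65, 1.43, 1.18 and 1.43%, and the FOXA letters TGTTTAC at 2.67, 3.05, 2.28 and 3.67%. Only windows around listed starts could be searched, so the letters in the 3211 members over no start were not analysed here.

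Place in the lists differed by the kind of region. The median place of members was 44.0 and 46.0% in the WT libraries and 46.5 and 39.1% in the PA libraries. Members over a protein-coding start stood at 27.0, 24.9, 23.2 and 24.6%, members over no start at 47.4, 49.9, 50.9 and 42.4%, constitutive regions at gene ends at 25.5, 23.0, 20.9 and 22.2%, and those outside genes at 46.8, 51.1, 51.3 and 41.9%. In every library start members stood close to gene ends, and members over no start stood close to regions outside genes. Over the 4 libraries, members stood 12.2 ± 2.51 points lower in the list than all other constitutive regions (SD, n = 4, exact sign-flip permutation p = 0.125, two-sided, the smallest that 4 libraries can give). They stood 21.0 ± 3.98 points below gene ends, and their difference from regions outside genes was -3.90 ± 1.26 points, that is, higher in the list (each exact p = 0.125, n = 4), so the direction depends on the set they are compared with. Start members differed from members over no start by -22.7 ± 4.47 points (exact p = 0.125, n = 4) and stood 2.01 ± 0.399 points below gene ends (exact p = 0.125, n = 4). Members over no start and regions outside genes differed by -0.139 ± 0.832 points, less than the spread between libraries (exact p = 0.875, n = 4). No p below 0.05 can be had from 4 libraries.

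**Figure D4:**
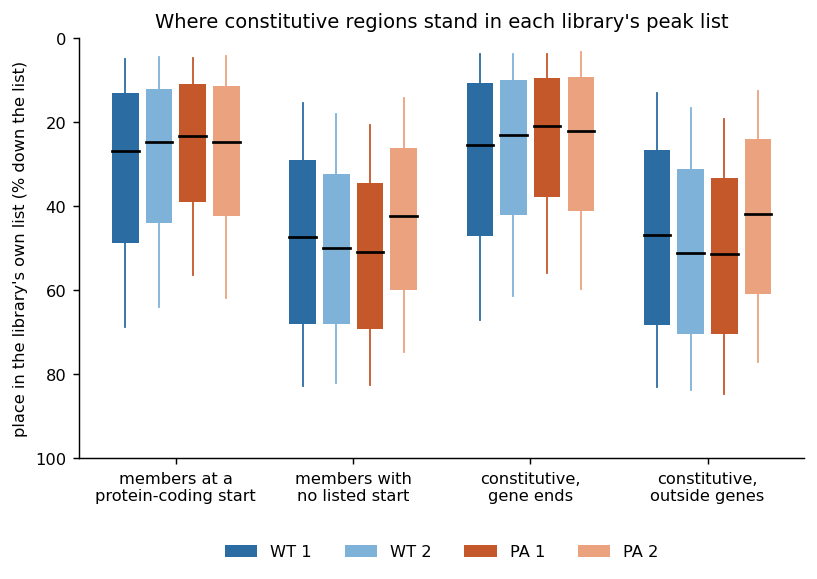
Place of constitutive regions in the list of each library, in percent of lines down the list, with the top of the list at the top of the axis. Boxes span the quartiles, black lines mark medians and thin lines run from the 10th to the 90th percentile. Members over a start (medians 23.2 to 27.0%) lie beside gene ends, and members over no start (42.4 to 50.9%) beside regions outside genes.

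Individual start members follow. Those from Slc39a10 to Eci2 stood far higher in the lists than the median start member, which stood at 23.2 to 27.0%. The start of Slc39a10, a zinc importer, lay 72.2 kb from the 5′ end and stood at 0.0799, 0.0810, 0.132 and 0.121% in WT 1, WT 2, PA 1 and PA 2, in the first lines of every list, while its ends were called in no library. The member over the start of Nr3c2, the mineralocorticoid receptor gene, stood at 0.297, 0.887, 0.510 and 0.215%. That of Arntl, which encodes the clock activator BMAL1, stood at 1.05, 1.14, 0.596 and 0.309%. Insig2 encodes an endoplasmic reticulum protein that holds back activation of the sterol regulator SREBP. Its start member stood at 2.39, 1.53, 1.92 and 1.67%. That of Hdac4, a class IIa histone deacetylase gene, stood at 2.95, 1.46, 1.04 and 2.01%, and that of Por at 3.64, 2.49, 1.78 and 1.81%. In these 6 genes neither end was called in any library, while the internal start was called in all 4. For Nr3c2, Arntl, Hdac4 and Por, however, the promoter table lists no start within 1 kb of the 5′ end. For Slc39a10 and Insig2 it lists 1 there. Eci2, a gene of unsaturated fatty acid oxidation, had its listed start 33.0 kb from the 5′ end, under a member at 4.82, 3.44, 3.36 and 2.38%. The CpG-poor starts of Hnf4a and Prlr stood lower. Hnf4a encodes a nuclear receptor that maintains hepatocyte identity. Its start printed above, 40.3 kb from the 5′ end, stood at 23.8, 24.2, 36.4 and 19.1%, while the 5′ end was called in 3 libraries, and a second member, at chr2:163540612-163541029 and over no start, stood higher at 7.72, 9.50, 17.3 and 7.21%. The start member of Prlr, the prolactin receptor gene, stood at 59.2, 29.6, 47.9 and 31.9%. The CpG-rich start of Srebf1, the gene of SREBP-1, stood at 15.0, 7.51, 19.4 and 9.72%. In every library this was higher than the starts of Hnf4a and Prlr and lower than that of Eci2.

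The highest members of all lay over no listed start. By mean place the first 5 were in Cdk8 (0.0152, 0.00771, 0.00389 and 0.00672%), in the overlap of Cmss1 and Filip1l (0.0190, 0.0154, 0.0117 and 0.0134%), in Chl1, in Zc3h7a and in Pcmtd1. The gene of the fifth, Pcmtd1, has no entry in the promoter table. They stood among the first lines in all 4 libraries. Slc39a10, Esyt2, Klf10, Pex2 and Mesd followed, of which Slc39a10, Esyt2 and Mesd lay over a start of their host gene. No deposited peak was removed before merging, and what the highest members reflect was not tested.

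Gene lists were read beside genes of like span, since the share of genes with a member rose with span. In each list the share of genes with a member is given with the share over all protein-coding genes weighted to the spans of the list. Spans were matched by decile, so the top decile holds long and very long genes together. Among hepatocyte transcription factors, which set liver identity, 8 of 20 genes (40.0%) held a member, beside 15.1% for their spans. Among them were Hnf4a, Onecut2, Nr5a2, Gata4, Creb3l3 and Klf15, and the longest without one was Prox1. Of 45 nuclear receptors, 20 held one (44.4% beside 27.1%), with 9 members in Esrrg, 8 in Rora, 5 in Rarb, 4 in Nr3c2 and 3 in Nr1h4, the bile acid receptor gene. Of 28 coregulators 17 did (60.7% beside 37.5%), led by Ppargc1a with 9, while the longest without one was Tcf7l2. Insulin and growth hormone signalling had 14 of 30 (46.7% beside 29.0%), with 4 members each in Igf1 and Prlr, 3 in Irs1 and Stat5b and 2 in Insr and Ghr. The clock had 8 of 21 (38.1% beside 19.4%), with Rora, Hlf, Arntl and Per2 among them and none in Clock.

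Metabolic lists split. Glucose and glycogen genes had 11 of 25 with a member (44.0% beside 17.7%), among them Pcx, which encodes pyruvate carboxylase, with 4, and Pfkfb3, Slc2a2 and Gbe1 with 3 each. Lipid and sterol synthesis had 12 of 30 (40.0% beside 18.4%), with 3 each in Acaca, which makes malonyl-CoA, and Scap. Bile acid and xenobiotic metabolism had 11 of 30 (36.7% beside 15.9%), with 4 in Por and 3 in Cyp7b1. Other metabolic lists stood nearer to genes of like span in their share of genes. Propionate and branched-chain amino acid breakdown had 4 of 28 (14.3% beside 19.5%), which were Pcca with 4, Bckdhb with 2 and Mmadhc and Hibadh with 1. Fatty acid oxidation had 5 of 30 (16.7% beside 16.3%), the urea cycle and amino acids 6 of 30 (20.0% beside 14.8%) and plasma proteins 4 of 34 (11.8% beside 10.9%). By members per Mb of body, these 4 lists had 5.47, 10.7, 10.5 and 8.35, beside 5.07 over all protein-coding genes. The 5.07 is not matched for span. The median spans of these lists were 29.0, 27.7, 21.6 and 14.8 kb, and genes of 10 to 30 kb held 6.77 per Mb. Propionate and branched-chain breakdown lay below that value and the other 3 lists above it. Histone acylation had 7 of 28, beside 21.7% of genes of like span, with 6 members in Kat2b and 4 in Hdac4. Wnt and zonation had 12 of 26 (46.2% beside 26.4%), with 3 members each in Tcf7l1 and Lrp6, and actin, adhesion and junctions 20 of 30 (66.7% beside 40.1%), with 6 each in Pard3 and Lpp. Very long neuronal genes, with a median span of 1140 kb, had 24 of 30 with a member (80.0%). The share was 49.8% by decile of span and 59.5% over all genes above 300 kb. Their density was only 1.38 members per Mb of body, against 2.998 in genes over 300 kb and 5.07 over all protein-coding genes. Ptprd held 6 members and Nrg1 5.

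Some long list genes held no member. They included Hdac9 (870 kb), Dock1 (503 kb), Rptor (297 kb), Rorb, Elovl6, Auh, Cpt1a and Pfkfb1, and the neuronal gene Lrp1b, the longest of them. Cps1, the first enzyme of the urea cycle, spans 109 kb, and Abcb11, the bile salt export pump, 104 kb. Both were called at an end in all 4 libraries and held no member.

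Marker genes of cell types were read for the tissue and the other cells in it. A call at an end was present in all 4 libraries in 40.7% of all protein-coding genes. This was so in 7 of 15 hepatocyte markers, near that share, and in 0 of 15 Kupffer cell, 3 of 15 endothelial, 1 of 14 stellate, 1 of 11 bile duct, 1 of 14 lymphocyte and 0 of 12 neutrophil and erythroid markers. Members lay in 1 of the 15 hepatocyte markers, Hnf4a (6.67% beside 13.6% for their spans). They lay in 4 of the 15 endothelial ones, Kdr, Tek, Stab2 and Flt1 (26.7% beside 29.1%). Bile duct markers had 1 (9.09% beside 9.44%), lymphocyte markers 1 (7.14% beside 12.5%) and neutrophil and erythroid markers 1 (8.33% beside 3.21%). Kupffer and stellate markers had 0, beside 11.0 and 16.3%. With calls needed in 3 libraries only, 1 Kupffer marker held a member without PA 2, 1 stellate marker without WT 1 and 2 hepatocyte markers without PA 1. Bulk tissue was used, so fewer cells of a type and less open chromatin per cell cannot be told apart.

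**Figure D5:**
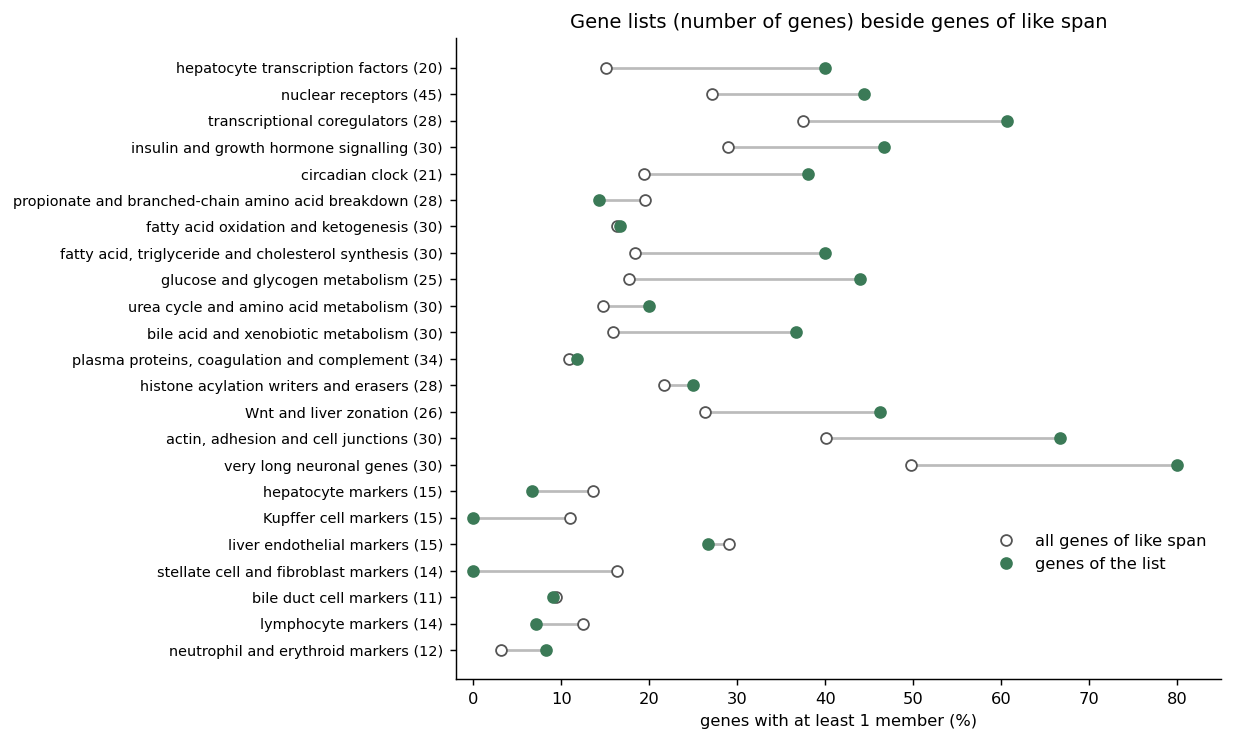
Percent of genes with at least 1 member in 23 gene lists (filled circles, with the number of genes in brackets) beside the percent over all protein-coding genes of like span (open circles). Spans were matched by decile. Hepatocyte transcription factors reach 40.0% beside 15.1%, while propionate and branched-chain amino acid breakdown reach 14.3% beside 19.5%.

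Between genotypes, members were compared by order. Places were ranked again over the 17581 constitutive regions, so that each library had the same number of ranks, and a member counted as higher in a genotype when both of its libraries stood above both of the other. Over all constitutive regions 14.0% were higher in WT and 15.0% higher in PA. Among members 827 (16.5%) were higher in WT and 721 (14.4%) in PA, so the shares lay near the background. With place as a percent of each library's own list the split was 475 to 1082. On that scale a region takes a smaller percent in a longer list, and the PA 2 list was the longest. The ranks of members moved by library and not by genotype, with medians of 58.8 and 60.9 in the WT libraries and 62.9 and 59.0 in the PA libraries. Start members were higher in WT in 79 cases (11.2%) and in PA in 133 (18.9%), and constitutive regions at gene ends had 11.2 and 16.8%. Members over no start were higher in WT in 578 and in PA in 425 of 3211 cases, and regions outside genes in 16.1 and 12.7%. Start members counted without WT 1 split 209 to 205 and without PA 1 258 to 190, so their excess in PA rested on those libraries. Members over no start split 520 to 502 when ranked among themselves, against 578 to 425, and without PA 1 they split 969 to 1135.

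Most members that did not overlap differed by little, with a median gap between the nearest libraries of 3.67 rank points, beside 3.06 over all constitutive regions. A gap of at least 20 was present in 43 of 5006 members and in 103 of all 17581 constitutive regions. The widest toward WT was in Hhipl1, at 7.23 and 8.95% down the lists in WT and 52.9 and 38.8% in PA, a gap of 45.7 rank points. Rdh1, of the retinol dehydrogenase family, stood at 20.9 and 23.5% in WT, with both PA libraries lower by 34.0 rank points or more, followed by Bcr, Trerf1 and Plekha6. The widest toward PA was in Dnah11, an axonemal dynein gene, at 77.3 and 67.8% in WT and 34.8 and 23.9% in PA, a gap of 34.6 points. Inpp5a, Casr, Mfsd13b and Fyn followed. These were picked as the extremes of 5006, so their gaps are descriptions. Members of the genes around propionyl-CoA were mixed. The Pcca member at 235.5 kb from the 5′ end had a gap of 19.6 points toward WT. The Bckdhb members, in the gene of a subunit of the branched-chain ketoacid dehydrogenase, stood at 43.8 and 50.9% against 64.9 and 68.9%, and at 68.3 and 71.1% against 95.3 and 72.5%. Of the 8 members of this list, 3 were higher in WT, 1 in PA and 4 overlapped. Over all constitutive regions 14.0% were higher in WT and 15.0% in PA, and 8 members are too few to set against these shares. The 1 higher in PA was the member over the Pcca start, with a gap of only 0.0853 rank points. With 2 libraries a genotype, the smallest exact permutation p for any one region is 0.333.

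Members made up 56.7 and 58.9% of the regions inside genes that were called in WT 1 and WT 2, and 59.3 and 48.0% of those in PA 1 and PA 2. Since every member is called in every library, this share restates how many regions inside genes each list held, and it carries no test. The numbers were 8831 and 8505 in WT and 8438 and 10440 in PA, with PA 2 apart from the other 3 libraries. Without PA 2 the share was 1.61 points higher in PA, and with it lower.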

How the data were processed

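ATAC-seq peak lists of 4 mouse livers, 2 per genotype, were used. For each library the authors deposited positions alone (a chromosome with 2 coordinates), so values are places in the genome and have no unit of measurement. The build, per the submitters' processing notes, was GRCm38 (mm10) and tools were bedtools 2.31.0, Bowtie2 2.5.1, cutadapt 3.5, HOMER 4.10, R 4.1.2 and SAMtools 1.17. How peaks were called, with which threshold, read filters and shift of read ends, and how lines were ordered, is not stated there (not given in the sources used here). Depth per library is unknown, which leaves out intervals that need it, and a longer list may come from more reads.

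Groups were taken from sample titles. Peaks were merged and placed with Python 3.11.15, pandas 2.3.3 and numpy 2.4.6, and the steps were tested on simulated lists. An overlap of 1 bp counted as a call. RefSeq gene spans of GRCm38.p6 were used for 21627 protein-coding genes on the 20 chromosomes with peaks, and starts and strands (17273 genes) from its promoter windows. Exons and introns were not told apart. Gene ends were read as ends of protein-coding genes, and 319 members lay within 1 kb of an end of another kind of gene.

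Libraries were compared by exact sign flips over the 4 libraries or exact permutation of 2 against 2. Regions are not replicates, so no p was computed over them. The members and the 23 gene lists (525 genes, all matched, 1 by an older symbol) were chosen with earlier results of these data known. Named were Pcca and Pccb, the 10 genes with most members, the 10 with most per 100 kb among those with at least 4, per list the 2 genes with most members and the longest with none, the 10 highest members, those nearest the 1 kb limit, the 5 widest gaps in each direction and the 5 deepest; some genes that this rule takes are not reported here. Other genes, the starts, the windows shown and the motifs SP/KLF, NFY, TATA and E-box were chosen after their values were seen. Alternatives varied the distance limit, the ends used, merging, list length and libraries.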

Additional observations from a re-analysis of the deposited data

How the results depend on the processing

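The number of members was 5006 and stayed between 4071 and 5996 under every alternative but one, the limits of 500 bp, 2 kb and 5 kb from gene ends, other rules of merging and overlap, ends of every gene and leaving out a library among them. It was 2107 when only the upper 50% of each list was used, a limit that removes regions by place. Genes with a member numbered 2544 to 3656, against 3254, and members over a protein-coding start 374 to 849, against 704. Place against regions outside genes alone was -3.90 points, against 12.2 for all other constitutive regions, 9.21 by means and 11.1 to 13.0 without each library. The share of regions inside genes that were members differed between genotypes by -11.8 to 1.61 points without each library, and by -0.626 with lists held to the length of the shortest.

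Counts of members in order between genotypes depended on the setting. They were 475 higher in WT and 1082 in PA with place as percent of the own list, 353 and 249 with a gap of at least 5 points, and 770 and 773 with ranks over members alone, an alternative chosen after seeing the data. Without each library they ran from 1535 to 2070 in WT and from 1443 to 1711 in PA, where fewer libraries have to be in order. With same-numbered libraries as a replicate block, where both PA minus WT pairs move alike, they were 1214 and 1113. The libraries share only a number, since the labels do not pair them, and deviations of WT 1 and PA 1 from their group means had a correlation of -0.14 over constitutive regions. Depth is unknown and limits every call near the threshold.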

Other observations

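Members that lay over the start of a long noncoding RNA alone numbered 64. The start ran against the strand of the host gene in 48 and with it in 1, and the rest had more than 1 host or a host of unlisted strand. Their median place was 38.3 and 37.5% in the WT libraries and 33.9 and 36.0% in the PA libraries, between members over protein-coding starts and members over no start. Another 50 members lay over both a protein-coding and a noncoding start, as in Por and Edem1.

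MicroRNA hairpins lay in 3 members, of 1005 hairpins in the RefSeq table. They were Mir6546 in Fcgr3 (chr1:171064591-171064652), Mir6715 in Tectb and Mir3105 in Shank2. The member with Mir6546 stood at 56.0, 80.2, 73.0 and 44.4% in WT 1, WT 2, PA 1 and PA 2, and none of the 3 lay over a listed protein-coding start.

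Regions inside genes that were called in both libraries of 1 genotype and in neither of the other numbered 333 for WT and 577 for PA. Of these, 171 (51.4%) and 319 (55.3%) lay in a gene that also held a member, beside 54.1% of all 9321 regions inside genes that were no members. The same split over all regions of the series is not given here. PA 2 called 10440 regions inside genes, against 8831 in WT 1, 8505 in WT 2 and 8438 in PA 1. The larger count for PA is therefore not read as a result about regions inside genes.

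Of all members, 16.5% were higher in WT and 14.4% in PA. Among members of very long neuronal genes 12 of 55 were higher in WT and 2 in PA, and among those of bile acid and xenobiotic genes 6 of 18 and 1. Of the 6 members in endothelial markers, 0 were higher in WT and 4 in PA. Nuclear receptors had 7 and 7 of 52, and lipid and sterol synthesis 4 and 4 of 18. These lists were picked after their values were seen among 23, and no test was made of the splits. In Gys2, the gene of liver glycogen synthase, the only member stood at 27.2 and 46.5% in WT and at 75.2 and 78.3% in PA.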
